A study of Mus musculus with 26 samples.

Results

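A set of 11819 H3K27me3 peaks that lie between genes was examined in mouse embryonic fibroblasts (MEFs). They were drawn from the 36011 peaks of the first WT library, and all the values that chose them came from WT cells. Each peak was narrower than 20 kb and overlapped a peak of the second WT library by at least 1 bp. Each touched no gene of the GENCODE M21 annotation, lay more than 2 kb from every transcription start site (TSS) and was free of EZH2 peaks in both WT lists. Of the 35973 peaks on assembled chromosomes, 28639 were shared by both WT lists, 28084 of those were under 20 kb, 13645 of those touched no gene, 12466 of those lay outside the TSS windows, and 11819 of those had no EZH2 peak. A further 26 peaks on unplaced scaffolds would have passed the steps that need no annotation and were left out. The intergenic peaks made up 41.3% of the shared WT peaks but covered 25.7 Mb, or 25% of the bases of the list.

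The study deleted the RNA binding region (RBR) of ATRX, a chromatin remodeller encoded on the X chromosome, and asked how ATRX, EZH2 and H3K27me3 were then distributed. CUT&RUN, in which an antibody directs a nuclease to cut out the chromatin it marks, was deposited as 16 peak lists, and RNA-Seq as 6 libraries, with 2 libraries for each genotype and target. WT cells were the female MEF line without a change in ATRX. ATRXΔRBR cells carried a CRISPR/Cas9 deletion of the RBR in the endogenous gene, and ATRX KD cells expressed an shRNA against ATRX and had been selected with puromycin. ATRX KD is used as the label of those libraries, and ATRX protein is not measured in the files. ATRXΔRBR is described as a clone, so that a difference of the clone and a difference made by the deletion cannot be told apart. The 2 libraries of a genotype are described as biological replicates, without saying whether they came from separate cultures, and p-values rest on the spread between libraries.

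H3K27me3 is the trimethyl mark that the polycomb repressive complex 2 (PRC2) places on lysine 27 of histone H3, and EZH2 is the methyltransferase subunit of that complex. The mark is best known from CpG-rich promoters of silent developmental genes, where PRC2 itself can be mapped. It also spreads over long stretches without genes, where the mark is often weaker and the enzyme is hard to detect. ATRX is known for its place at pericentric heterochromatin and telomeres and for its interaction with PRC2.

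To show what such a region looks like, 300 bases of GRCm38 (mm10) at the midpoint of 4 regions were read from the plus strand, with the dinucleotide CG in capitals. The first came from the region farthest from any TSS, in a gene desert of chromosome 5, the second from the region of highest WT fold enrichment that neither ATRXΔRBR list held, the third from a region of high WT fold enrichment held by all 6 H3K27me3 lists, and the fourth from a region that had EZH2 in both ATRXΔRBR lists.
farthest from any TSS, chr5:63239370-63239669: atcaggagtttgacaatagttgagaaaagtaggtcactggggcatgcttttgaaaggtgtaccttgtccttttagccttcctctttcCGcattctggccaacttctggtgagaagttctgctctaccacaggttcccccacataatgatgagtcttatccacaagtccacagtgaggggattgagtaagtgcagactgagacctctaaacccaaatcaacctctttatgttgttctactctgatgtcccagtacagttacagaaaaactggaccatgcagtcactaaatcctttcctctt
absent from ATRXΔRBR, chr17:57566381-57566680: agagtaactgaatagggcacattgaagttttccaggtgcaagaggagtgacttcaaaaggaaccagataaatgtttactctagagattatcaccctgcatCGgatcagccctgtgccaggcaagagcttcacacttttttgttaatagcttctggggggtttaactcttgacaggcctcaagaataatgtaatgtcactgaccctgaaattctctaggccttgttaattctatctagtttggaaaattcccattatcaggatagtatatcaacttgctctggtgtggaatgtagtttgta
in all H3K27me3 lists, chr13:120106245-120106544: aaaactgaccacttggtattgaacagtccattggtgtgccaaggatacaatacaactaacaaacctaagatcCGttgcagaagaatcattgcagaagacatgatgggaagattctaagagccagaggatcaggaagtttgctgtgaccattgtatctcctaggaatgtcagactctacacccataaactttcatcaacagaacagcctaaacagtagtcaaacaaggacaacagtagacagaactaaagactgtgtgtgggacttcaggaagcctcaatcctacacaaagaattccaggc
EZH2 in both ATRXΔRBR lists, chr16:16663801-16664100: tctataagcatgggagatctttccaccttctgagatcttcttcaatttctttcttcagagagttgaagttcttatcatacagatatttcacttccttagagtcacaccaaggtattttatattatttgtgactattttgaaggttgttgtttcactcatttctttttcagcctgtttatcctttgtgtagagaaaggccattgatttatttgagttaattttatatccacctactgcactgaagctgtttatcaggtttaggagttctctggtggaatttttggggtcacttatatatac
The first 3 windows held 1 CG each and the fourth held 0, with GC contents of 44.3%, 40.7%, 42.3% and 34.3%. RepeatMasker letters covered none of the first, 35.3% of the second, 34.7% of the third and 100% of the fourth window. Over all the intergenic peaks, 79.7% of such 300-base windows held at least 1 CG, with a median of 2, against 94.6% of the 32851 RefSeq promoters of 300 bases, whose median was 7. CG reads the same on both strands, so that 1 search covers both.

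The peaks resembled gene-body WT peaks without EZH2 in width, strength and CpG content. Their median width was 1345 bp, with quartiles of 689 and 2744 bp, their median fold enrichment over the local background was 3.63, and their median −log10 q was 1.84. The 1761 narrow TSS peaks with EZH2, the usual polycomb targets, had a median width of 6076 bp and a median fold enrichment of 4.61. Gene-body peaks without EZH2 were close to the intergenic ones, at 1421 bp and 3.64, and the whole WT list had 1213 bp and 3.63. TSS peaks without EZH2 were wider, at 2038 bp and 3.74. The median GC content of the intergenic peaks was 40.6%, near that of all assembled chromosomes (41.7%), and the ratio of observed to expected CpG was 0.150 in the median, against 0.190 for the chromosomes, 0.167 for gene-body peaks without EZH2, 0.367 for the TSS peaks with EZH2 and 0.384 for RefSeq promoters. Only 17 of the 11819 peaks reached a ratio of 0.6, a common mark of CpG islands, against 132 of the 1761 TSS peaks with EZH2. Repeat-masked bases made up 22.7% of a peak in the median and 36.4% of the chromosomes. These comparisons describe regions and were not tested.

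The widest of the regions spanned 19947 bp on chromosome 5 and the narrowest peak that passed every step but the width limit spanned 20335 bp, 1 of 22 such peaks. The region nearest a TSS lay 2002 bp from it, and the farthest of the 1044 peaks that only the TSS step removed lay 2000 bp away. In the second WT list, 295 of the 11819 regions (2.50%) lay under a peak of 20 kb or wider, so that the width limit is a property of the first list.

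The regions lay far from coding genes and close to each other. The rule itself kept them more than 2 kb from any TSS, and other intergenic sequence was not set beside these distances. The median distance to the nearest protein-coding TSS was 54214 bp, with quartiles of 19496 and 127357 bp and a largest value of 1646954 bp. The nearest TSS of any annotated gene was 19886 bp away in the median, and the nearest gene body 15607 bp. A share of 12.5% lay within 10 kb of a protein-coding TSS, 31.1% lay between 100 and 500 kb from it, and 63.4% lay upstream of that gene. The rule also removed peaks that touch a gene body, which lies downstream of its TSS. It thus favours the upstream side, and the upstream share of other intergenic sequence was not measured. Within 50 kb of a region there was another of its kind in 92.2% of cases, and 91.5% had another H3K27me3 peak of any kind within 10 kb. The median gap to the next peak of the first WT list was 1358 bp, close to the median width of the regions. A domain of 20 kb or more lay within 50 kb of 12.4%.

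With gaps of at most 50 kb allowed, the 11819 regions fell into 2634 runs, of which 925 were single regions. The 286 runs of 10 or more held 5316 regions (45.0%). The longest run, chr19:54052292-54868573, held 101 regions in 816 kb between Adra2a, an adrenergic receptor gene, and Gpam, which encodes an acyltransferase of triglyceride synthesis. The next held 63 regions in 597 kb between Dthd1 and Nwd2 (chr5:62899796-63497172), and the third held 59 in 507 kb between Plcl1 and Hsfy2 (chr1:55973358-56480473). None of these 3 spans contained a protein-coding gene.

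Chromosomes 5, 2 and X held the most regions, with 1035, 933 and 893. Per megabase of sequence outside genes and TSS windows, chromosome 19 held 25.5, chromosome 5 held 14.9 and chromosome 9 held 14.0, while chromosome 3 held 5.83 and chromosome 1 held 5.91. Chromosome X, of which one copy is silenced in female cells, held 8.39.

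At an overlap of 1 bp, more of the regions had an H3K27me3 peak in each ATRXΔRBR list than had none, and with 50% of the region covered fewer did (46.9% and 40.7%). A peak overlapped 6805 of them (57.6%) in the first ATRXΔRBR list and 6107 (51.7%) in the second, a mean of 54.6% ± 4.18 (SD, n = 2). Both lists held 5665 (47.9%), where 50.2% of all 28639 shared WT peaks were held by both, and neither list held 4572 (38.7%), where the share of all shared WT peaks was 37.7%. The intergenic regions thus lay close to the shared peaks as a whole. For scale, WT peaks were also chosen by the same rule without asking for the other WT list. Of these, 76.6% of the first library recurred in the second and 61.7% of the second recurred in the first. The regions studied here had already recurred in WT, so that the sets are unlike. Read depth cannot be read from peak lists, so that a region without a peak is not shown to lack the mark.

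In the libraries labelled ATRX KD most regions had no peak. The lists held 1052 (8.90%) and 923 (7.81%) of the 11819 regions, a mean of 8.36% ± 0.772 (SD, n = 2). Both held 445 (3.77%), against 8.38% of all shared WT peaks, and neither held 10289 (87.1%), against 81.4%. The 2 ATRXΔRBR values lay 46.3 points above the 2 of ATRX KD in the mean and did not overlap them, and the exact two-sided permutation test gave p = 0.333, the smallest that 2 against 2 libraries allow. The lists labelled ATRX KD stood apart in every class of peak. They held 7241 and 6336 H3K27me3 peaks, where WT held 36011 and 38832 and ATRXΔRBR 38651 and 33105. No peak in them reached 20 kb, and their largest −log10 q was 170 and 173, where the WT and ATRXΔRBR lists ended between 17.2 and 24.5. A difference in how these libraries were made and the genotype cannot be told apart. IgG control libraries are listed for WT and ATRXΔRBR but not for ATRX KD, and whether peaks were called against them is not stated. The RNA of the targeted gene was not lower in them, and RNA does not give the level of the protein. Atrx, which encodes the remodeller, was at 634 and 435 CPM (counts scaled to library size) in the WT RNA libraries and at 411 and 549 in those labelled ATRX KD, a log2 fold change of −0.15 ± 0.21 (SE, adjusted p = 0.605, edgeR). Its TPM was 233 and 141 in WT and 331 and 512 in ATRX KD. In ATRXΔRBR it was at 373 and 311 CPM, against 628 and 433 in WT in that fit, with a log2 fold change of −0.63 ± 0.22 (adjusted p = 0.14), and the deleted region is only a part of the transcript.

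Peaks inside gene bodies, chosen by the same rule except that they touched a gene outside the TSS windows, had a lower share held in each of the 4 libraries. Of these 9817 peaks, the ATRXΔRBR lists held 53.2% and 47.0%, and the lists labelled ATRX KD 7.36% and 6.55%. The intergenic share was higher in 4 of 4 libraries, by 4.37 and 4.64 points in ATRXΔRBR and by 1.54 and 1.26 points in ATRX KD, a mean of 2.95 points. The exact two-sided sign-flip test over the 4 libraries gave p = 0.125, the smallest it can give. These libraries are 2 from each genotype, scored on the same WT peaks, so that they are not 4 independent lines. The intergenic share was higher in 4 of 4 libraries in each of 6 width classes as well, by 2.08 to 5.92 points in the mean.

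**Figure D1:**
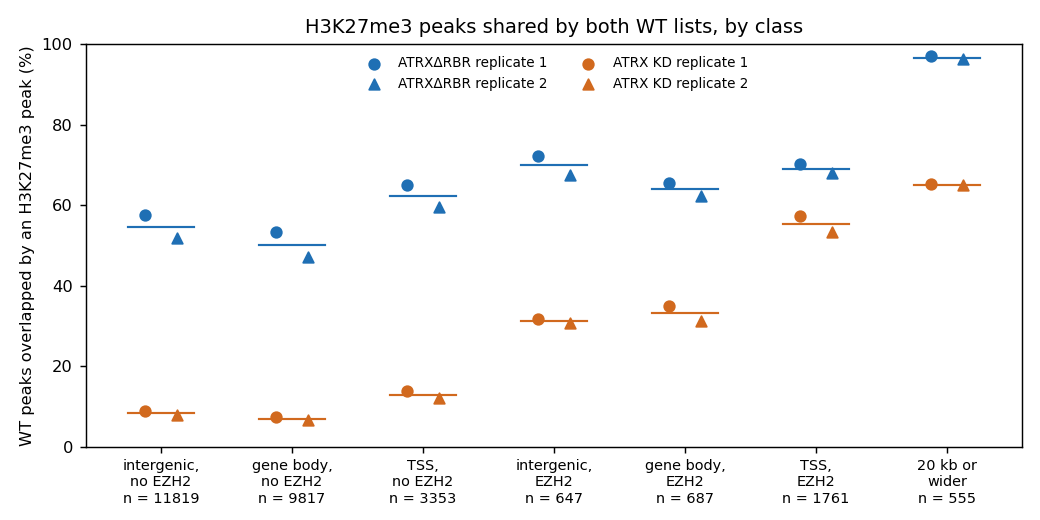
Share of WT H3K27me3 peaks (%) overlapped by an H3K27me3 peak in each ATRXΔRBR and ATRX KD library, by class of WT peak; circles and triangles are replicates 1 and 2 and the bars are their mean. The 11819 intergenic peaks without EZH2 were held at 57.6% and 51.7% in ATRXΔRBR and at 8.90% and 7.81% in ATRX KD, and the 555 domains of 20 kb or wider at 96.9% and 96.2%, and 65.2% and 64.9%.

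The 647 intergenic peaks that did have EZH2 in WT were held at 72.3% and 67.5% in ATRXΔRBR and at 31.8% and 30.6% in ATRX KD. They were also wider, with a median of 4294 bp. The 3353 TSS peaks without EZH2 lay between, at 65.0% and 59.6%, and 13.7% and 12%.

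Width went with retention, as the plot by width shows. Of the 1900 regions under 500 bp, the ATRXΔRBR lists held 39.3% and 35.4% and the ATRX KD lists 3.00% and 2.53%. Of the 232 regions of 10 kb or more, they held 95.3% and 94.0%, and 25.9% and 25%. A wide peak offers more bases for an overlap of 1 bp. With at least 50% of the region covered, a limit applied to the same 11819 regions after seeing the data, the mean share was 43.8% in ATRXΔRBR and 2.03% in ATRX KD. Retention also went with WT fold enrichment, with means of 42.5% in the lowest quartile and 71.0% in the highest for ATRXΔRBR, and 3.79% and 16.4% for ATRX KD.

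Regions nearer to coding genes were held more often. Within 10 kb of a protein-coding TSS, 69.1% and 63.4% were held in ATRXΔRBR, and at 100 to 500 kb 47.4% and 41.1%, while the median width differed little (1406 and 1296 bp). In ATRX KD the shares were 11% and 8.65% near genes and 6.50% and 6.04% at 100 to 500 kb. The 174 regions beyond 500 kb did not continue the fall in ATRXΔRBR, at 52.3% and 47.7%, and were at 1.72% and 3.45% in ATRX KD. Regions share runs and libraries, so that these shares are given without a test.

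**Figure D2:**
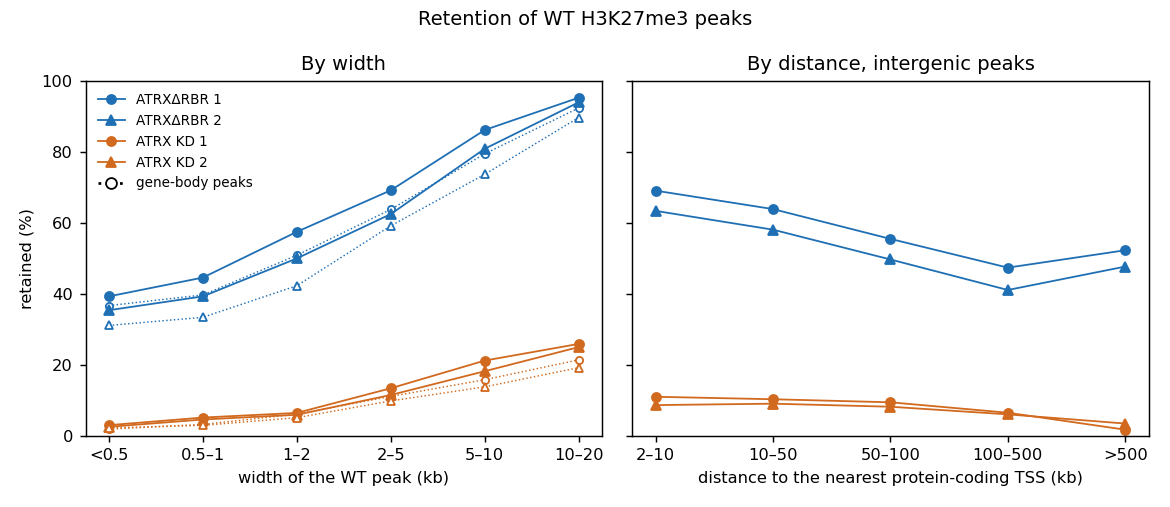
Share of WT peaks held (%) in each library against the width of the WT peak in kb (left; solid lines intergenic, dotted lines gene-body peaks) and, for the intergenic peaks, against the distance to the nearest protein-coding TSS in kb (right). ATRXΔRBR shares rise from 39.3% and 35.4% under 0.5 kb to 95.3% and 94.0% at 10 to 20 kb, and fall from 69.1% and 63.4% within 10 kb of a TSS to 47.4% and 41.1% at 100 to 500 kb.

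Regions that ATRXΔRBR held were wider and held more repeats than those it did not. Regions in both ATRXΔRBR lists had a median GC content of 40.1% and those in neither 41.3%. Their repeat-masked share was 25.7% against 19.1% and their width 1931 against 936 bp. By quartiles of the masked share, ATRXΔRBR retention was 43.9% and 39.2% in the lowest and 66.9% and 60.9% in the highest. By quartiles of GC content it was 64.5% and 59.2% in the second and 48.7% and 43.5% in the top one. Width was not held fixed in these shares.

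The ATRXΔRBR peaks over retained regions had median widths of 4498 and 4102 bp, where the peaks of the second WT list over those same regions had 3031 and 3099 bp. Peaks of the whole ATRXΔRBR lists were also wider, with medians of 1838 and 1902 bp against 1213 and 1267 bp in WT. The 6805 regions held in the first ATRXΔRBR list lay under 5256 different peaks, and 11.5% of them under a peak of 20 kb or more. In ATRX KD the peaks over retained regions were 797 and 744 bp wide, and those of the first list covered 26% of the region in the median. Of all bases in the 11819 regions, ATRXΔRBR peaks covered 54.9% and 48.4%, and ATRX KD peaks 3.08% in the first list.

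In ATRXΔRBR neighbouring regions tended to share their fate. Where the nearest region within 50 kb was held in the first ATRXΔRBR list, a region was held in 79.3% of 6347 cases, and where it was not held, in 27.3% of 4547 cases. The second list gave 76.2% and 24.8%. In ATRX KD the same shares were 15.4% and 7.91% in the first list and 10.7% and 7.20% in the second. The 925 regions with no other within 50 kb were held at 57.3% and 52.5% in ATRXΔRBR, close to the whole set, and at 13.8% and 12.1% in ATRX KD, above it. One ATRXΔRBR peak can cover both neighbours, which is part of these shares.

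Some runs were held or lost nearly whole in ATRXΔRBR, and most were mixed. The run on chromosome 5 between Dthd1 and Nwd2 had 79 and 94 H3K27me3 peaks in the WT lists, covering 149 and 184 kb, and 3 and 0 in the ATRXΔRBR lists, covering 2.88 and 0 kb. Of its 63 regions, 3 were held in the first ATRXΔRBR list and none in the second or in either ATRX KD list. The first printed sequence came from its middle, from a region of 2070 bp that lay 408548 bp from the TSS of Nwd2 and was 98.5% covered in the second WT list and 0% covered in the 4 others. The run on chromosome 1 did the reverse, with 58 of its 59 regions held in each ATRXΔRBR list and the bases under peaks rising from 172 and 205 kb in WT to 306 and 271 kb. On chromosome 19, 85 and 76 of the 101 regions were held, with 386 and 449 kb covered in WT and 442 and 415 kb in ATRXΔRBR. The ATRX KD lists had 4 and 7 peaks there, covering 3.06 and 5.59 kb.

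Of the 286 runs of 10 or more, 33 (11.5%) had at least 90% of their regions in both ATRXΔRBR lists and 37 (12.9%) had at most 10% in both. In 14 runs no region was held, and in another 14 every region was held by both lists. The largest run without any had 28 regions in 307 kb of chromosome 6 (chr6:55507659-55815054), beside Adcyap1r1, the gene of a neuropeptide receptor. WT peaks covered 106 and 132 kb of it and ATRXΔRBR peaks 0 kb in both lists. The largest run held in full had 22 regions in 156 kb (chr15:27121941-27277591) between Fbxl7 and Ank, which encodes a pyrophosphate transporter. WT peaks covered 62.4 and 73.1 kb of it and ATRXΔRBR peaks 106 and 97.1 kb. No run of 10 or more had over 50% of its regions in an ATRX KD list, and in 73 of the 286 (25.5%) neither ATRX KD list held any.

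**Figure D3:**
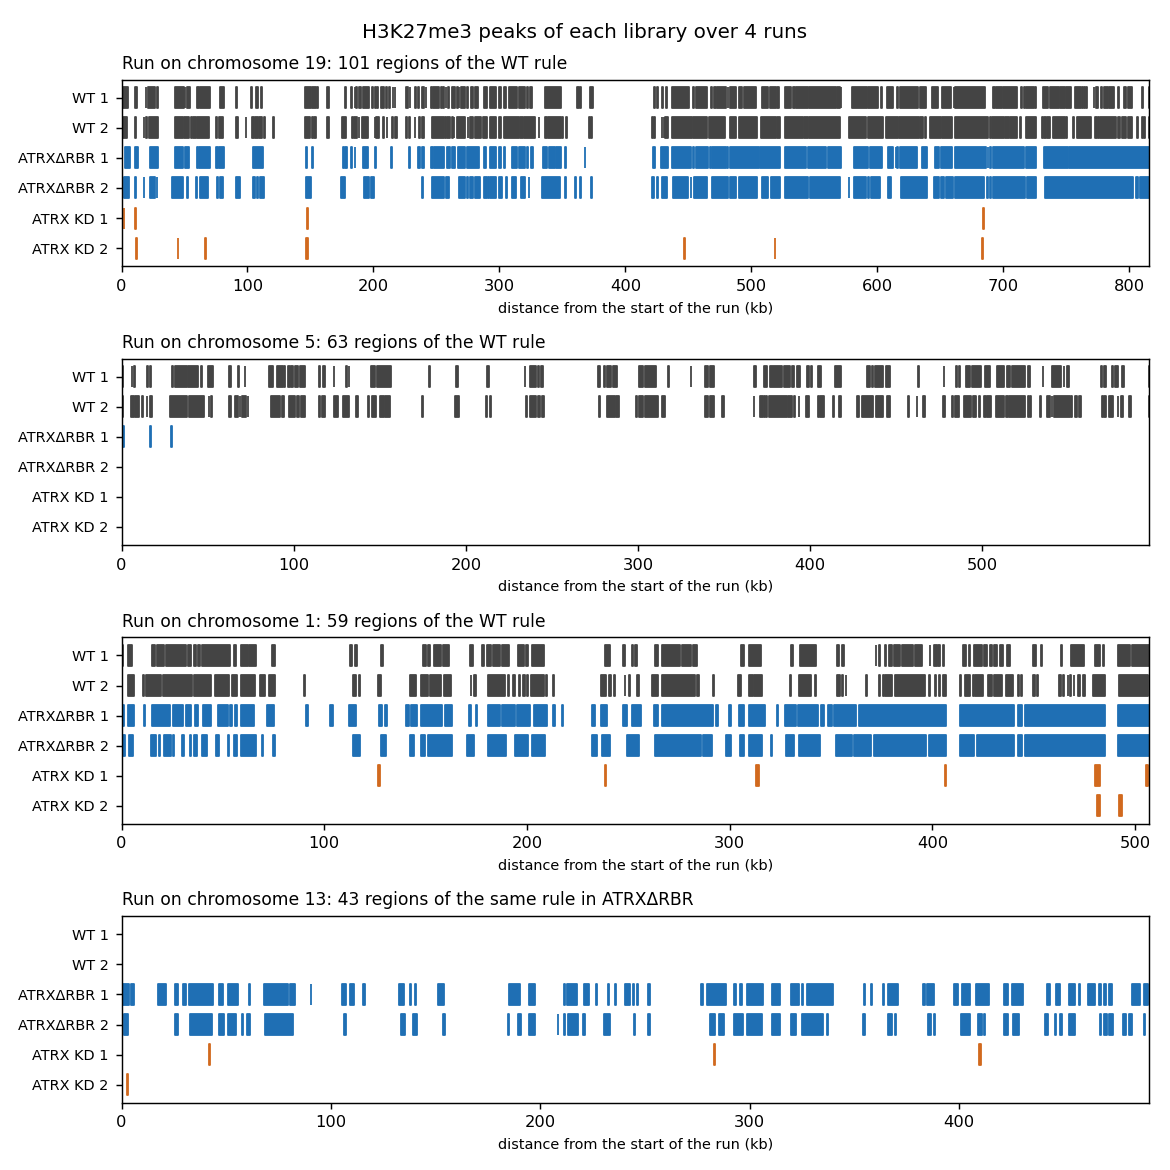
H3K27me3 peaks of each of the 6 libraries (bars, drawn to scale) against the distance from the start of the run in kb, for the 3 longest runs of WT regions and the longest run of ATRXΔRBR regions that WT lacked. The chromosome 5 run keeps 3 and 0 peaks in ATRXΔRBR, the chromosome 1 run is held with 306 and 271 kb covered, and the chromosome 13 run has 61 and 50 ATRXΔRBR peaks and 0 WT peaks.

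Regions were gained as well as lost. The same rule applied within ATRXΔRBR, with its own EZH2 lists, chose 10736 regions from the first list and 11873 from the second, and 5978 (55.7%) and 6582 (55.4%) of these lay under no peak of either WT list. Of all shared ATRXΔRBR peaks the shares were 45.1% and 45.6%, and of gene-body peaks without EZH2 49.3% and 49.5%. In ATRXΔRBR 189 runs held 10 or more regions, in 77 of these at most 10% of the regions met a WT peak and in 40 at least 90% did. The longest of the 77 held 43 regions in 491 kb (chr13:14680231-15170765) between Psma2, a proteasome subunit gene, and Gli3, a transcription factor of the Hedgehog pathway. It had 61 and 50 ATRXΔRBR peaks covering 166 and 121 kb and 0 peaks in both WT lists. The RNA of Psma2 and Gli3 did not pass the test in ATRXΔRBR (log2 fold changes −0.46 ± 0.18 and 0.30 ± 0.21, adjusted p = 0.194 and 0.482, edgeR). In ATRX KD the rule chose 988 and 987 regions, of which 20.7% and 21.3% lay under no WT peak, against 17.0% and 17.3% of all shared ATRX KD peaks.

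Retention in ATRXΔRBR differed by chromosome, and the same 3 chromosomes were lowest and the same 3 highest in both libraries. Chromosome 6 was lowest, at 35.8% and 30.5% of 629 regions, followed by chromosome 4 (44.6% and 38.4%) and chromosome 10 (45.2% and 39.4%). Chromosomes 15 (72.7% and 72.3%), 16 (74.7% and 70.3%) and 2 (73.7% and 67.5%) were highest. The gene-body peaks of chromosome 6 were held at 29.8% and 23.5%, and those of chromosome 15 at 65.7% and 62.7%. On chromosome 19 gene-body peaks were held at 82.4% and 77.1% and the intergenic ones at 66.9% and 63.8%, the opposite order to the genome as a whole, and chromosomes 1, 8, 9 and 13 shared that order in both ATRXΔRBR libraries. Chromosome X, at 56.3% and 46.4%, lay within the range of the autosomes. In ATRX KD the shares were lowest on chromosome 19, at 4.89% and 4.08%, and highest on chromosome 10 in the first list (13.9%) and on chromosome 18 in the second (11.8%). The copy number of chromosomes in the lines was not tested.

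**Figure D4:**
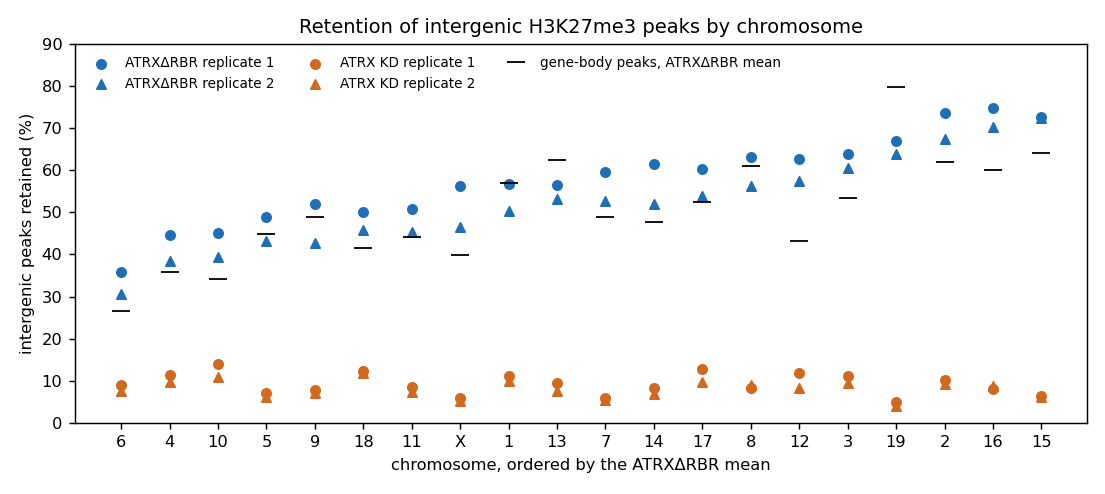
Share of the intergenic peaks held (%) on each chromosome in the 4 libraries (circles replicate 1, triangles replicate 2), with black dashes for the ATRXΔRBR mean of gene-body peaks. ATRXΔRBR runs from 35.8% and 30.5% on chromosome 6 to 72.7% and 72.3% on chromosome 15 and 74.7% and 70.3% on chromosome 16, while ATRX KD stays at or under 13.9%.

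Fates in both genotypes were counted together for these regions only, so that the shares are not shown to be particular to them. Of the 11819 regions, 4294 (36.3%) were in none of the 4 lists and 370 (3.13%) in all of them. Another 4538 (38.4%) were in both ATRXΔRBR lists and neither ATRX KD list, and 48 (0.406%) were in both ATRX KD lists and neither ATRXΔRBR list. Of the regions held in the first list, 83.2% were held in the second in ATRXΔRBR and 42.3% in ATRX KD. The second lists held 51.7% and 7.81% of all the regions, so that these shares do not rank the agreement of replicates.

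Single regions show these fates. The widest, chr5:5935990-5955936, nearest to Steap1, was 93.5% covered in the second WT list, 65.4% and 59.3% in ATRXΔRBR and 0% in both ATRX KD lists. Another of 19844 bp, 5969 bp from the TSS of Calb2, which encodes calretinin, was fully covered in WT and 43.0% and 16.1% in ATRXΔRBR. The third widest, 66243 bp from the TSS of Tfec, was 29.8% and 5.52% covered in ATRXΔRBR. Steap1 was expressed at 101 and 79.1 TPM (transcript abundance scaled by length and library size) in WT, and Calb2 was listed at 0.

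Among the 370 regions in all lists, the highest WT fold enrichment was 7.12, for a region of 1592 bp at chr18:12158579-12160170, 8547 bp from the TSS of Rmc1. It was at least 92.7% covered in every list. The third printed sequence came from the next, a region of 320 bp on chromosome 13 with a fold enrichment of 6.50 in the first WT list. The highest among the regions absent from ATRXΔRBR, 6.59, belonged to a region of 322 bp at chr17:57566370-57566691, the second printed sequence, 20865 bp from the vomeronasal receptor gene Vmn2r120. It was 84.8% covered in the second WT list, 0% in both ATRXΔRBR lists, and 88.8% and 92.2% in the ATRX KD lists, one of the 48 regions with that fate. Among those in both ATRXΔRBR and neither ATRX KD list, the leader lay 42015 bp from the TSS of Insig1, a regulator of sterol synthesis, and was 94.5% and 90.4% covered in ATRXΔRBR. Insig1 RNA did not pass the test in ATRXΔRBR (−0.10 ± 0.16, adjusted p = 0.792, edgeR) and fell in ATRX KD (−1.47 ± 0.11, adjusted p = 3.16e-04). A region in all lists 317737 bp from the TSS of Fam135b lay under ATRXΔRBR peaks of 18396 and 18639 bp, where the WT peaks were 2888 and 3304 bp wide. Fam135b rose from 0.1 and 0.05 TPM in WT to 1.42 and 1.62 TPM in ATRXΔRBR (3.16 ± 0.48, adjusted p = 0.0073) and was listed at 0 in ATRX KD.

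EZH2 was seen at the regions in 1 ATRXΔRBR library and hardly in the other. Its first ATRXΔRBR list overlapped 591 regions (5.0%) and its second 2 (0.0169%), and the ATRX KD lists overlapped 9 and 18. The rule asked for no EZH2 in WT, so any peak here is a gain by construction. The gene-body peaks, chosen the same way, gave 4.79% and 0.0102% in ATRXΔRBR. The second ATRXΔRBR list of EZH2 held 11408 peaks in all and the first 22418. Of the 591 regions, 96.8% and 95.1% kept H3K27me3 in the ATRXΔRBR lists, and their median width was 3700 bp. The 2 regions with EZH2 in both lists lay on chromosome 16. One, at chr16:16659717-16668184, 8221 bp from the TSS of the olfactory receptor gene Olfr19, was 76.5% repeat-masked and gave the fourth printed sequence. The other lay 4073 bp from the TSS of B3galt5.

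ATRX peaks were rare at the regions, as at gene-body H3K27me3 peaks without EZH2. The WT lists of ATRX overlapped 5 (0.0423%) and 1 (0.00846%), with no region in both, and the ATRXΔRBR lists 2 and 3. The WT shares were 0.0407% and 0.0102% of gene-body peaks without EZH2 and 0.220% and 0.0384% of all shared WT peaks. They were 1.08% and 0.309% of the intergenic peaks with EZH2 and 1.53% and 0.284% of the TSS peaks with EZH2. The rule left out peaks with EZH2 in WT, so that the low share cannot be told apart from that choice. These WT lists held 9141 and 4781 peaks. Over the 4 lists 10 regions had an ATRX peak.

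The genes beside the regions were mostly silent in these cells. The 11819 regions had 2918 different nearest protein-coding genes, by TSS. The RNA-Seq files held 2917 of them, and 1898 (65.1%) were listed under 1 TPM in the mean of the WT libraries, where the share was 47.9% of all 21877 protein-coding genes in the files. The share was 75.3% of the 1110 genes with a region within 10 kb and 41.6% of the 257 whose closest region lay 100 kb or more away. The median was 0.03 TPM for the nearest genes and 1.67 TPM for all protein-coding genes. Fibroblast genes marked the cells, with Vim at 5615 and 3903 TPM and Col1a2 at 2145 and 1772 TPM in WT, though Thy1 was listed at 0 and Col3a1 was at 28.1 and 32.2 TPM in WT and 0.360 and 0.750 TPM in ATRX KD. Of 10 markers of other cell types, Cdh5, Krt18, Pou5f1 and Sox10 were listed at 0 in every library, and Ptprc, Epcam and Nanog stayed at or under 0.350 TPM. Pecam1 of endothelium was at 0.930 and 1.58 TPM in WT, 5.22 and 3.01 TPM in ATRXΔRBR and 0 in ATRX KD. Neuronal Tubb3 ran from 1.48 to 4.50 TPM, while Sox2, a transcription factor gene of stem and neural cells, was at 43.9 and 37.1 TPM in WT, at 18.7 and 17.5 TPM in ATRXΔRBR and at 1.10 and 0.550 TPM in ATRX KD.

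The genes with the most regions included silent and active ones. Adra2a was the nearest gene of 68 and was at 0.225 TPM. Hsfy2 had 51 and was listed at 0, whereas Kif20b, a mitotic kinesin gene, also had 51 and was at 114 TPM, and Anxa1, a phospholipid-binding annexin gene, had 41 at 791 TPM. Of the 51 regions nearest Hsfy2 all were held in both ATRXΔRBR lists, and of those nearest Kif20b 23 and 24. The share under 1 TPM was 54.8% of the 283 genes with 10 or more regions and 65.9% of the 1057 genes with 1.

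By gene family, 59 of 202 developmental transcription factor genes (29.2%) were the nearest gene of at least 1 region, against 13.3% of all 21938 protein-coding genes. Nkx6-1 had 37 regions and Sox14 had 36, with 27 and 21, and 26 and 18, of them held in ATRXΔRBR. The 305 regions of this family were held at 47.2% and 40.3%. Of its 59 genes 74.6% were under 1 TPM in WT, and of the 23 that could be tested 1 was higher and 5 lower in ATRXΔRBR, and 3 higher and 6 lower in ATRX KD, where 8.37% and 39.5% of all protein-coding genes tested were called. Ion channel genes followed with 35 of 138 (25.4%), among them Kcnd3 with 20 regions and Cacna1e with 15. Glutamate and GABA receptor genes gave 10 of 51 (19.6%). Their 36 regions were held at 19.4% in each ATRXΔRBR list, and Grik3 alone had 17 of them. Among the families listed, retention in ATRXΔRBR ran from that share up to 91.7% and 87.5% for the 24 regions of keratins. Solute carriers (62 of 385, 16.1%), keratins (16 of 113, 14.2%), vomeronasal receptors (42 of 331, 12.7%), olfactory receptors (137 of 1135, 12.1%), zinc finger proteins (47 of 397, 11.8%), collagens (6 of 52, 11.5%) and cadherins (9 of 97, 9.28%) lay nearer the share of all genes. The families were not tested against each other, and genes of a cluster share regions.

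RNA-Seq was then read at these neighbours, since the regions were chosen without it. In ATRXΔRBR, 1183 of the 2918 genes had enough counts to be tested, and 161 (13.6%) were called at an adjusted p under 0.05, where 6.85% of all 16334 genes tested were called. Of these, 119 (10.1%) were lower than in WT and 42 (3.55%) higher, against 4.07% and 2.79% of all genes tested and 5.02% and 3.35% of protein-coding genes. The median log2 fold change was −0.10 for the neighbours and −0.02 for all genes. With at least 10 counts required in every library, 74 of 941 neighbours (7.86%) and 5.0% of all genes were called, and 58.1% of the calls at neighbours were lower, not 73.9%. Genes that are low in 1 genotype enter the first test through the other, and the share of such genes was not tested as a source of the difference.

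In ATRX KD, 506 of 1196 neighbours (42.3%) were called, 204 (17.1%) higher and 302 (25.3%) lower. Of all 16785 genes tested 33.0% were called, with 15.2% higher and 17.8% lower. Of protein-coding genes 39.5% were called, with 18.4% higher and 21.1% lower, so that the neighbours' higher share lay below that of protein-coding genes. With every library required to reach 10 counts, the shares were 41.2% of neighbours and 39.9% of all genes. Both comparisons share the WT libraries.

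Neighbours of lost regions and of held regions were set side by side. For 526 genes, a region lay within 100 kb and none of their regions was in an ATRXΔRBR list, and 142 could be tested. Of these 25 (17.6%) were lower in ATRXΔRBR and 6 (4.23%) higher. For 1056 genes every region was in both lists, and of the 467 tested 40 (8.57%) were lower and 15 (3.21%) higher. Of all genes tested 4.07% were lower and 2.79% higher, and of protein-coding genes 5.02% and 3.35%. The median WT level was 19.1 CPM for the tested neighbours of lost regions and 29.8 CPM for those of held regions. With at least 10 counts in every library, a filter chosen for this split after seeing the data, the lower shares were 7.69% (8 of 104) and 2.98% (11 of 369), against 2.36% of all genes, and the higher shares 5.77% (6 of 104) and 2.44% (9 of 369), against 2.64% of all genes. The difference between these groups of genes was not tested.

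**Figure D5:**
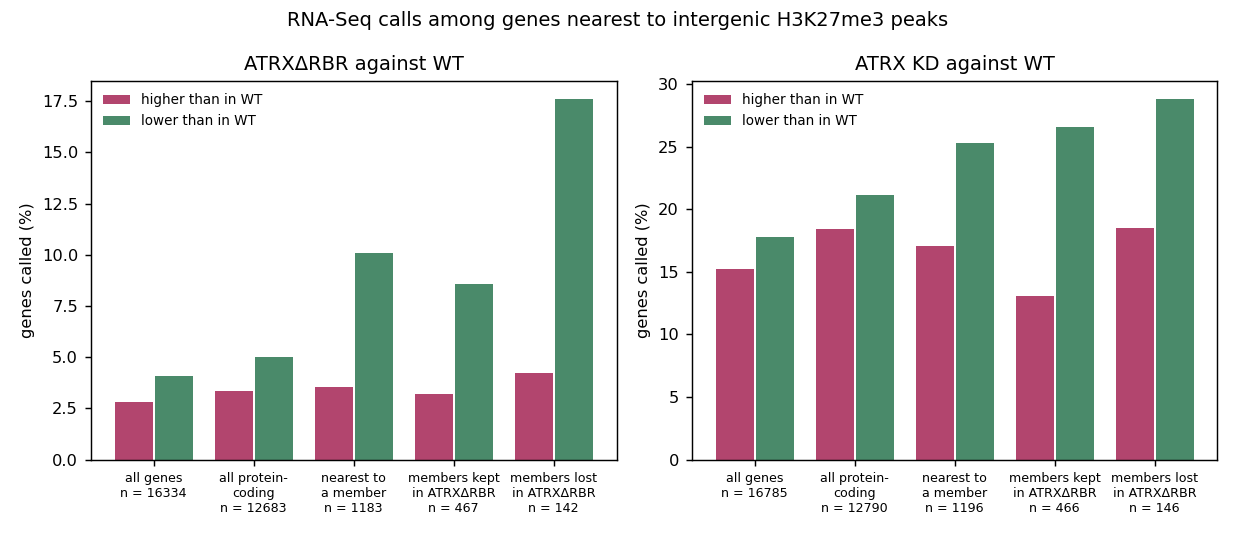
Share of genes called (%) higher or lower than in WT (edgeR, adjusted p under 0.05) in ATRXΔRBR (left) and ATRX KD (right), for all genes tested, all protein-coding genes, genes nearest to an intergenic H3K27me3 peak, and those whose peaks within 100 kb were all held or all lost in ATRXΔRBR; n counts genes tested. In ATRXΔRBR 10.1% of the nearest genes were lower against 4.07% of all genes.

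The neighbours with the largest fitted changes in ATRXΔRBR all fell, and nearly all to 0 reads. They entered the test through the WT libraries and drop out when 10 counts are asked of every library. The first limit was set on the sum over both genotypes, so that a gene at 0 in WT could pass it too. What set their shared direction was not tested. Dlk1, an imprinted gene of a Notch-like ligand, was counted 577 and 342 times in the WT libraries and once in each ATRXΔRBR library (log2 fold change −8.55 ± 0.47, adjusted p = 2.14e-04, edgeR). It was at 27 and 68 counts in ATRX KD (−3.57 ± 0.27, adjusted p = 2.70e-04). It was the nearest gene of 14 regions, of which 14 and 12 were held in ATRXΔRBR. Wnt10a, which encodes a Wnt ligand, had 66 and 41 counts in WT and 0 in both ATRXΔRBR libraries. Set against a floor of 3 counts per library, the fall was at least 15.8-fold (adjusted p = 0.00243, edgeR), with 4 and 2 of its 4 regions held. Lmo1, a transcriptional cofactor gene 2219 bp from its closest region, had 46 and 41 counts in WT and 0 in both, at least 13-fold lower (adjusted p = 0.00244), and neither list held any of its 5 regions. Chst10, a sulfotransferase gene, fell from 30 and 31 counts to 0, at least 9.13-fold (adjusted p = 0.00452), and also lost both its regions.

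Another 5 followed the same form, from between 26 and 55 counts per WT library to 0 in both ATRXΔRBR libraries. Of these Cd200, an immune-regulatory surface protein gene, kept both its regions, and so did 5730409E04Rik. Steap4, a metalloreductase gene, kept its single region. Mark1, a microtubule-associated kinase gene, had 1 region and lost it, and Sytl4, a vesicle trafficking gene, had 1 that only the first list held. Mark1 and 5730409E04Rik rose in ATRX KD, by 1.08 ± 0.23 and 2.39 ± 0.20 on the log2 scale (adjusted p = 0.0113 and 3.72e-04, edgeR).

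Among called neighbours of high expression, changes were modest and went both ways. Asns, the asparagine synthetase gene, was at 213 and 193 CPM in WT and 444 and 470 in ATRXΔRBR, and the groups did not overlap (1.17 ± 0.16, adjusted p = 0.00495, edgeR). Uchl1, a ubiquitin hydrolase gene, fell from 221 and 145 to 64.7 and 93.3 CPM (−1.21 ± 0.26, adjusted p = 0.0325). Unc5b, a netrin receptor gene whose 2 regions were lost in both lists, rose from 54.9 and 48.1 to 98.5 and 96.8 CPM (0.92 ± 0.18, adjusted p = 0.0194). Scd1, the stearoyl-CoA desaturase gene, rose by 0.70 ± 0.16 (adjusted p = 0.0421) and Strap fell (−0.76 ± 0.16, adjusted p = 0.0277). The calls of Unc5b, Scd1 and Strap were each lost without 1 or more of the 4 libraries, with adjusted p of up to 0.0626, 0.131 and 0.112, and with the replicate number as a block (0.0560, 0.138 and 0.122).

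In ATRX KD the largest fitted changes were also falls, of genes that drop out in the same way. Cdkn1c, the imprinted gene of a cyclin-dependent kinase inhibitor, fell from 271 and 192 counts to 0, at least 78.4-fold (adjusted p = 1.74e-04), and its 2 regions were in none of the 4 lists. Hunk, a kinase gene, fell from 252 and 193 counts to 0, at least 75.5-fold (adjusted p = 1.54e-04), though 1 of its 2 regions was held in each ATRX KD list. Hs6st2, which encodes a heparan sulfate sulfotransferase, fell from 1317 and 1096 counts to 40 and 55 in ATRXΔRBR (−4.54 ± 0.21, adjusted p = 2.14e-04) and to 1 in each ATRX KD library (−10.35 ± 0.28, adjusted p = 1.89e-05), and no list held either of its regions. Gnai1, Bhlhe22, Gramd1b, Gng11, Prdm6 and B630019K06Rik were at 0 in both ATRX KD libraries, at least 19.6-fold to 75.7-fold lower.

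Highly expressed neighbours fell less in ATRX KD. Psat1, a serine synthesis gene, was at 810 and 855 CPM in WT and 416 in each ATRX KD library (−1.0 ± 0.10, adjusted p = 8.64e-04, edgeR), and had 30 regions, of which 10 and 9 were held in ATRXΔRBR and 1 and 0 in ATRX KD. Rack1, a ribosomal scaffold gene with 12 regions, fell (−0.71 ± 0.12, adjusted p = 0.00453). Scd1 fell as well (−0.65 ± 0.11, adjusted p = 0.00605), in the direction opposite to ATRXΔRBR. Anxa1 and Anxa2 fell by 0.42 and 0.44 on the log2 scale (adjusted p = 0.021 and 0.019). The call of Rack1 was lost without the first ATRX KD library, and those of Scd1, Anxa1 and Anxa2 without either one, with adjusted p of up to 0.0612, 0.0990, 0.327 and 0.296.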

How the data were processed

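CUT&RUN reads had been mapped to mm10 (Bowtie2) and broad peaks called library by library (MACS2), without pooling. The deposited fold enrichment, a ratio to the local background, and the deposited −log10 q of a peak are averages over the peak. They were not compared between lists, apart from the largest −log10 q of the H3K27me3 lists. The RNA-Seq files hold estimated counts and TPM per gene, which the authors made with RSEM after STAR alignment. The total of estimated counts was between 9051693 and 21723647 per library. Read depth of the peak lists is unknown, so that no interval could be given for them.

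The intergenic peaks were chosen from WT lists with GENCODE M21 on the 21 assembled chromosomes of GRCm38, and overlap was counted from 1 bp. The rule and the gene lists were chosen with earlier results of these data known. Shares were compared over libraries with exact permutation tests, and values over regions are descriptions. Estimated counts were rounded, genes were tested if their sum over both genotypes exceeded 10 counts, and edgeR's quasi-likelihood test (TMM, Benjamini-Hochberg adjustment) set ATRXΔRBR and ATRX KD each against WT. Of 53801 gene identifiers in the files, 53583 were in the annotation. Both the interval functions and the edgeR step were tested on simulated data. Regions were named as the extremes of width, distance and fold enrichment within each fate, and genes as the 10 called neighbours of largest change whose libraries did not overlap and the 5 of highest CPM, of which some are not reported here. A fold against a group at 0 was set against a floor of 3 counts per library, which covers counting error only. Python 3.11.15, pysam, R 4.3.3, edgeR 4.0.16 and DESeq2 1.42.0 were used. The IgG libraries were not analysed here. Alternatives were other width, TSS, q-value and overlap limits, the second WT list as the base, autosomes only, other count filters and normalizations, DESeq2, a single fit, the replicate block and leaving out each library.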

Additional observations from a re-analysis of the deposited data

How the results depend on the processing

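Retention in ATRXΔRBR (54.6%) moved beyond the replicate SD with at least 50% of the region covered, to 46.3% where the limit also chose the regions (9651 left) and to 43.8% on the unchanged regions, which turns the majority. It was 51.7 to 57.6% without either library. Retention in ATRX KD (8.36%) was 3.32% at a q-value of 0.01 or less, 2.12% with 50% covered (2.03% on the unchanged regions), 9.14% from the second WT list, and 7.81 to 8.90% without either library. The higher share of intergenic than gene-body peaks kept its sign in all alternatives and was 2.39 to 3.52 points without 1 library. The mean EZH2 share in ATRXΔRBR rested on 1 library (0.0169 to 5.0% without either). The ATRX share in WT was 0% with 50% covered and 0.00846 to 0.0423% without either library. Median GC content (40.6%) ran from 40.5 to 41.0% over the alternatives, being 40.8% with protein-coding genes only, 40.5% beyond 10 kb from every TSS, 41.0% at the q-value limit, 40.5% from the second WT list, 40.9% on autosomes and 40.5% in 200 bp windows. The median distance was 53575, 73836, 47388, 54786 and 55555 bp in the first 5 of these. The q-value limit left 3783 regions.

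Neighbouring genes called in ATRXΔRBR (161) were 244 without a filter on low counts, 74 with at least 10 counts in every library, 107 by the nearest gene body of any type, and 134 to 186 without 1 library. In ATRX KD (506) they were 295 by gene body and 313 to 745 without 1 library, being 334 and 313 without ATRX KD replicates 1 and 2. The replicate block gave 162 and 515 calls, and changed neither count by over 1.5 times, but ended the calls of Scd1, Strap and Unc5b in ATRXΔRBR. Same-numbered WT and ATRXΔRBR libraries deviated in opposite directions over genes (r = −0.513), and the crossed block, added after seeing the data, called 539 neighbours and 5585 of all genes in ATRXΔRBR. Of 310 alternatives for the named genes, 291 kept the call and 19 lost it, and none changed direction. The genes of largest change are missing from the alternative with 10 counts in every library, where they could not be tested. Scd1 in ATRXΔRBR lost its call there (adjusted p = 0.0547). The causes of these changes were not tested.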
